A study of Mus musculus with 8 samples.

Results

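Genes of the cell cycle were followed in newborn mouse epidermis in which keratinocytes make a mutant form of a mitochondrial helicase. The set holds 40 genes chosen by name for their role in the division cycle, of which 38 were measured among 22180 genes in all. Ccne2 shared its only probe set with Ints8, and no probe set was named Ccnb1, so these 2 are not analysed here. Where a gene had several probe sets, the one with the highest mean over all arrays was used. This applied to Rrm2 alone.

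Epidermal total RNA of C57BL/6J newborns (postnatal day 0) was hybridised to 8 expression arrays, 4 in each of 2 groups. The group called K320E below has the genotype K320E-TwinkleEpi: expression of Twinkle with the K320E substitution was brought about in the epidermis through the K14 promoter. That promoter is active in basal keratinocytes. Twinkle unwinds mitochondrial DNA for its replication. The control group has the genotype R26-K320E-TwinkleloxP/+, so its animals also carry the K320E-Twinkle allele, and the contrast sets expression of the mutant in the epidermis against the allele alone. Whether each array stands for its own animal or litter is not said in the labels. Levels of sex-linked transcripts, given below, differ within each group, so the arrays of a group did not all come from the same RNA. The p-values cover the spread among these samples only, part of which may be technical.

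A dividing cell licenses its replication origins in G1, copies its DNA in S phase and separates the copies in mitosis. The E2F factors drive the genes of the first of these steps, and the MuvB complex with FOXM1 drives those of G2 and mitosis. Cyclins and their kinases move the cell from phase to phase, and the anaphase-promoting complex (APC) removes cyclins and other proteins so that mitosis can end. In newborn skin the dividing keratinocytes lie in the basal layer of the epidermis and in the matrix of the growing hair follicles.

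The members were read as 2 sets. The G1/S set holds Ccne1, Mcm2 to Mcm7, Pcna and E2f1, all 9 of them measured, and the G2/M set holds 20 genes of mitotic entry and mitosis, 19 of them measured. The promoters of the 2 sets differ in letters that have long been tied to their timing, and some are shown here because the expression values below differ in sign between the same sets. RefSeq promoters (GRCm38.p6, from 250 bases before to 50 after the start) were found for 31 of the 40 members. TTTGAA, the letters of the cell cycle genes homology region (CHR) that MuvB binds, was searched on both strands. It was present in 11 of 15 G2/M promoters (73.3%), in 1 of 8 G1/S promoters (12.5%) and in 18.1% of 27025 promoters of the same length. GCGGGAA, one form of the E2F site, was in 0 of 15 G2/M promoters, in 2 of 8 G1/S promoters (25.0%) and in 4.66% of all promoters. CCAAT, the letters bound by NF-Y, was in 14 of 15 G2/M promoters (93.3%), in 6 of 8 G1/S promoters and in 37.9% of all. These matches are descriptions of letters, not of binding. The 200 bases before the start are printed for 3 G2/M members and 3 members of the licensing and nucleotide groups, 5′ to 3′ on the strand of the gene, with every match of the 3 motifs in capitals. A match on the opposite strand appears as its reverse complement: TTCAAA for the CHR, TTCCCGC for E2F and ATTGG for the CCAAT box.
Ube2c (chr2:164769729-164769928, plus strand): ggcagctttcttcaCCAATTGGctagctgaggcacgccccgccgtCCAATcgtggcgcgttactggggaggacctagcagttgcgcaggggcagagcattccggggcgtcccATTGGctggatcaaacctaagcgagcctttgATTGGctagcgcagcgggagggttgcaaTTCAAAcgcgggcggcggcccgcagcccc
Cdk1 (chr10:69352913-69353112, minus strand): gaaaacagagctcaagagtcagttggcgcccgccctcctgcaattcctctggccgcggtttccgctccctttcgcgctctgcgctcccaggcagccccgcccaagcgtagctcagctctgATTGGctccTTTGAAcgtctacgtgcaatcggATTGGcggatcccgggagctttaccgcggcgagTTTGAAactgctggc
Cdc20 (chr4:118437344-118437543, minus strand): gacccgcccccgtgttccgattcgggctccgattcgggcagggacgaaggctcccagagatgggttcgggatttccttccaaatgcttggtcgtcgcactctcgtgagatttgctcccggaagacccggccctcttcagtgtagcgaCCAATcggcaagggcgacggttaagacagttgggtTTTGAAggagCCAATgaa
Mcm7 (chr5:138171884-138172083, minus strand): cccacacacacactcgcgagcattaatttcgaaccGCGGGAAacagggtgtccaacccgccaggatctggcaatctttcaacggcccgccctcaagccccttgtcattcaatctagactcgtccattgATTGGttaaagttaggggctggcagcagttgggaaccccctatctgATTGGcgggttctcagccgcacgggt
Mcm6 (chr1:128359706-128359905, minus strand): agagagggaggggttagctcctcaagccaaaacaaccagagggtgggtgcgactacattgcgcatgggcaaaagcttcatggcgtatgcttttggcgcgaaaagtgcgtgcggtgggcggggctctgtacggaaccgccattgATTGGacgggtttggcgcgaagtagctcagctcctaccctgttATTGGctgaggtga
Rrm2 (chr12:24708054-24708253, plus strand): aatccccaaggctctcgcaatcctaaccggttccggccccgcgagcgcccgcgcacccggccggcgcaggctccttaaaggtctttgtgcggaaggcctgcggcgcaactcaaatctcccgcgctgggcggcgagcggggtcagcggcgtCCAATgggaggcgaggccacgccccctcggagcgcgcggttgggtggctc
Ube2c, Cdk1 and Cdc20 carry the CHR letters close to the start, beside CCAAT boxes, and in Ube2c a pair of CCAAT matches on opposite strands overlaps. Mcm7 holds the E2F letters and 2 CCAAT boxes in this window. Mcm6 and Rrm2, which had the lowest fold changes of the set, hold CCAAT letters and neither TTTGAA nor GCGGGAA in this window. Other forms of the E2F site were not searched for, so their absence is not shown. A link between these letters and the fold changes was not tested.

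The arrays matched their genotype labels at Twnk, the gene that encodes Twinkle. It lay between 8.91 and 9.28 (log2 intensity) in K320E and between 6.55 and 6.95 in controls. Array medians lay between 6.06 and 6.11. The keratinocyte markers Krt14 and Krt10 were high on all arrays, with Krt14 between 12.18 and 12.72. Xist and the Y-linked genes differed within each group. K320E arrays 1, 2 and 4 and control arrays 1 and 4 had Xist between 12.07 and 12.27 and a Y-linked mean between 4.75 and 4.82. K320E array 3 had Xist at 6.84 and a Y-linked mean of 8.64. The combination was unusual in 2 control arrays. Control array 2 had Xist at 9.27 and a Y-linked mean of 9.05, and control array 3 had 6.17 and 4.75. Counts are also given without these 2 arrays, which leaves K320E array 3 in, so sex-linked levels still differ between the groups.

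No member changed past the threshold. Genotypes were compared with limma over all 22180 genes, and 0 of the 38 members had a Benjamini-Hochberg adjusted p under 0.05, where 0.879% of all genes did. At an unadjusted p under 0.05 there were 8 members higher (21.1%) and 2 lower in K320E, 26.3% together. Over all genes 8.77% were higher and 6.06% lower, 14.8% together. The members were chosen with earlier results of these arrays known. The lowest adjusted p among the members was 0.156. The members divided by sign instead. Of the 19 G2/M members, 18 had a positive log2 fold change (K320E minus control), with a median of 0.15. Of the 9 G1/S members, 7 had a negative one, with a median of -0.08. Over all genes 49.8% of fold changes were above 0, 50.2% were below, and the median was 0.00. In RNA from whole epidermis, fewer cells in a phase and less RNA per cell cannot be told apart.

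**Figure D1:**
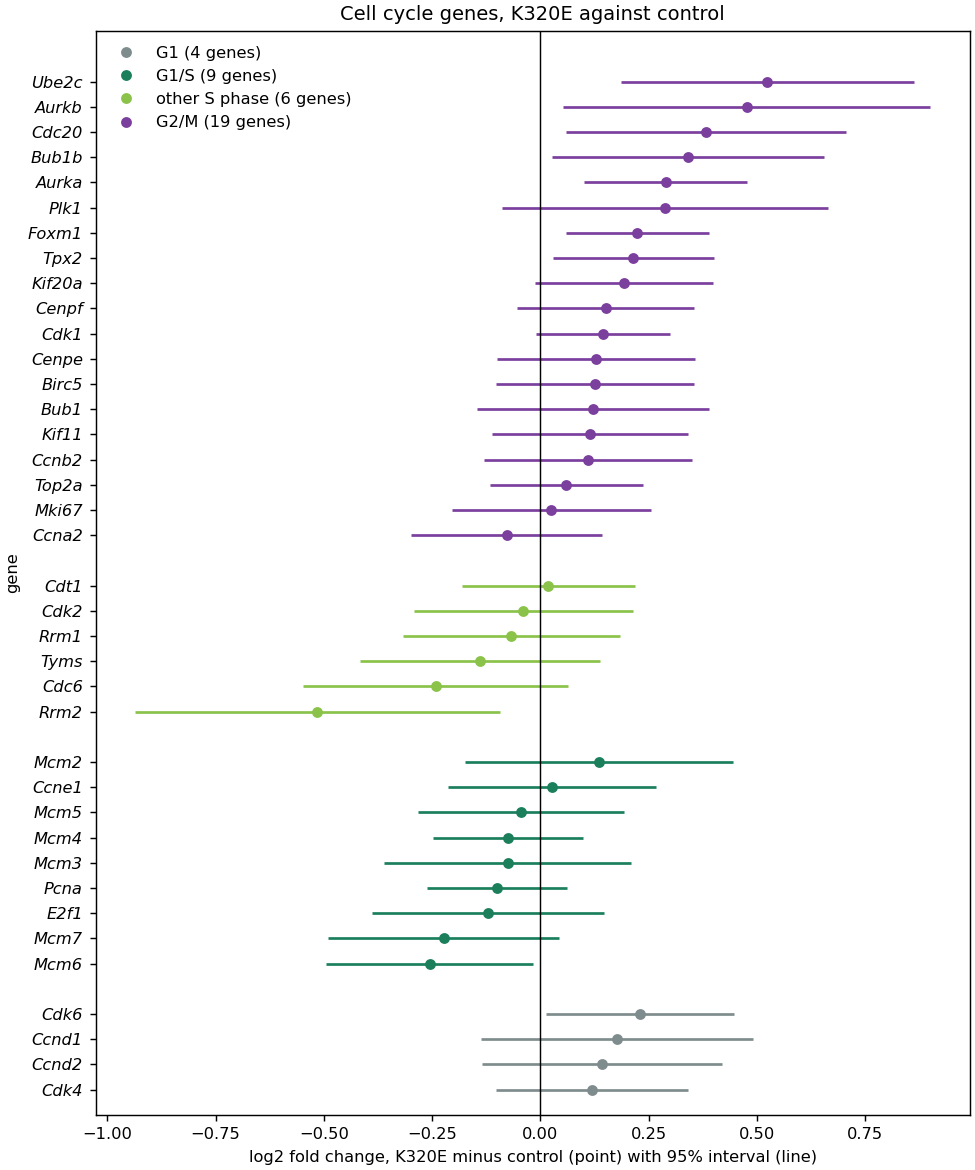
Log2 fold change of each measured member, K320E minus control, with its 95% interval from limma (n = 4 arrays per group), ordered within the G1, G1/S, other S phase and G2/M groups. All G2/M points except Ccna2 lie right of 0, and 7 of the 9 G1/S points lie left of it, while most intervals cross 0.

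The 9 mitotic kinases, checkpoint and proteolysis genes all had positive fold changes, with a median of 0.29. The highest value belonged to the machinery that ends mitosis. Ube2c, the ubiquitin-conjugating enzyme that works with the APC, read 9.66, 9.02, 9.18 and 9.31 on K320E arrays 1 to 4 and 8.88, 8.90, 8.86 and 8.43 on control arrays 1 to 4. Every K320E array lay above every control, with K320E array 1 the highest and control array 4 the lowest. The log2 fold change was 0.52 (SE 0.15, 95% interval 0.19 to 0.86; limma adjusted p = 0.156), the highest of the 38. Cdc20, the coactivator that turns the APC on in mitosis, read 9.61, 8.97, 9.10 and 9.11 in K320E and 9.06, 8.62, 8.77 and 8.83 in controls. K320E array 1 was the highest here too, and the groups overlapped through control array 1. Its fold change was 0.38 (SE 0.14, adjusted p = 0.255). Subunits and substrates of the APC had smaller values. In the list of 12 genes of anaphase and the APC, 6 were above 0 and 6 below, with a median of -0.00 and a range of -0.17 to 0.20. None of the 12 passed the threshold, and at an unadjusted p under 0.05 the count was also 0.

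The Aurora kinases and their partners came next. Aurka, which matures the spindle poles, read 8.43, 8.24, 8.22 and 8.38 in K320E and 7.98, 8.04, 7.88 and 8.21 in controls. The groups did not overlap, though the lowest K320E array and the highest control differed by little. Its log2 fold change was 0.29 (SE 0.08, 95% interval 0.10 to 0.48; limma adjusted p = 0.159). Tpx2, the protein that activates Aurka on the spindle, had a fold change of 0.21 (SE 0.08, adjusted p = 0.266). Aurkb, the kinase of the chromosomal passenger complex, read 9.59, 8.87, 8.90 and 8.82 in K320E and 8.91, 8.27, 8.53 and 8.58 in controls. K320E array 1 stood far above the other 3, and control array 1 lay above 3 of the K320E arrays. The fold change was 0.48 (SE 0.19, adjusted p = 0.278), and 0.29 without K320E array 1. Birc5, another subunit of that complex, read 9.12, 9.16, 9.08 and 9.34 in K320E and 9.27, 8.81, 9.11 and 9.003 in controls, a difference of 0.13 (SE 0.10) that was within the spread of the arrays. The complex has a pair of further subunits outside the 40 genes. Incenp, its scaffold, was higher in every K320E array (7.32 to 7.79) than in every control (6.89 to 7.25), by 0.38 (SE 0.12, adjusted p = 0.177). Cdca8, also called borealin, was between 7.71 and 7.83 in K320E and between 7.49 and 7.702 in controls, a fold change of 0.18 (SE 0.06, adjusted p = 0.244). Incenp and Cdca8 are named because their groups did not overlap, so that they were apart is no result about the complex. Over all genes 5.5% had K320E wholly above control. The groups overlapped for Aurkb and Birc5, and none of the 4 genes passed the threshold.

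**Figure D2:**
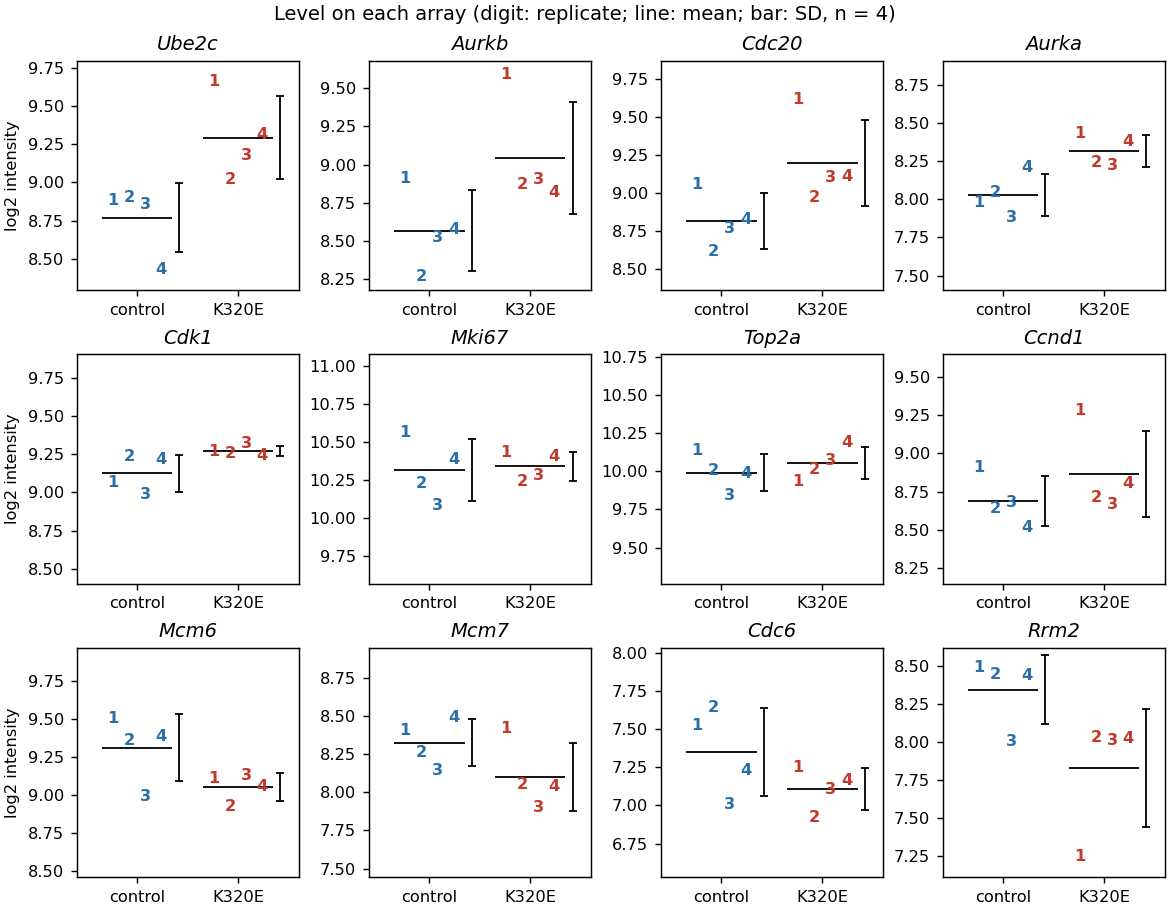
Log2 intensity of 12 members on each array, control in blue and K320E in red; digits give the replicate, lines the group mean and bars the SD (n = 4), and every panel spans the same 1.5 log2 units. Ube2c, Aurka and Cdk1 have groups that do not overlap, and K320E array 1 stands alone high for Aurkb and low for Rrm2.

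Checkpoint and entry genes followed the same sign. Bub1b, the checkpoint protein BubR1, read 8.31, 8.33, 8.12 and 8.32 in K320E and 8.24, 8.08, 7.88 and 7.52 in controls. Its 95% interval ran from 0.03 to 0.65 around 0.34, with control array 4 the lowest by far and control array 1 within the K320E range (adjusted p = 0.296). Bub1, the partner kinase at kinetochores, had a fold change of 0.12 (SE 0.12). Plk1, which drives entry into and exit from mitosis, read 8.98, 8.12, 8.36 and 8.30 in K320E and 8.29, 8.01, 8.25 and 8.06 in controls. K320E array 1 carried most of that difference. The fold change of 0.29 had an interval of -0.09 to 0.66, and without that array it was 0.11. Foxm1, the transcription factor of G2/M genes, had a fold change of 0.22 (SE 0.07, 95% interval 0.06 to 0.39; adjusted p = 0.202). Its lowest K320E array, at 7.60, lay just under the highest control, at 7.62.

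The mitotic cyclins and Cdk1 differed less. Cdk1, the kinase that they activate, read 9.27, 9.26, 9.32 and 9.24 in K320E and 9.07, 9.24, 8.98 and 9.22 in controls. The groups did not overlap, but K320E array 4 and control array 2 differed by little. The log2 fold change was 0.14 (SE 0.07, 95% interval -0.01 to 0.30; limma adjusted p = 0.369). Ccna2, cyclin A2, which acts in S phase and early mitosis, read 8.87, 8.74, 8.59 and 8.92 in K320E and 9.07, 8.72, 8.76 and 8.89 in controls. It was the 1 G2/M member with a negative value, -0.08 (SE 0.10). Ccnb2, cyclin B2, had a fold change of 0.11 (SE 0.11). Ube2c, Aurka and Cdk1 were the 3 members whose groups did not overlap, all with K320E higher, which is 7.89% of the 38. Over all genes 5.5% had K320E wholly above control, 3.75% wholly below and 9.25% either, so the share of the 38 is near that background. All 3 belong to the 19 G2/M members, where the share was 15.8%.

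The general marks of proliferation were close to equal. Mki67, which coats mitotic chromosomes and is the usual stain for dividing cells, read 10.43, 10.24, 10.28 and 10.41 in K320E and 10.56, 10.23, 10.09 and 10.39 in controls. The group ranges overlapped almost wholly, at 10.34 ± 0.10 and 10.31 ± 0.20 (SD, n = 4 each). Its log2 fold change of 0.03 had a 95% interval of -0.20 to 0.25. Top2a, the topoisomerase that untangles sister chromatids, read 9.94, 10.01, 10.07 and 10.19 in K320E and 10.13, 10.004, 9.84 and 9.98 in controls. Its fold change was 0.06, with an interval of -0.12 to 0.24. Without control arrays 2 and 3 the values were -0.13 for Mki67 and -0.0077 for Top2a. These intervals bound the differences but do not show that the levels were the same.

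Spindle motors and kinetochore proteins had small positive values. Kif11, the motor that pushes the spindle poles apart, read 9.94, 9.78, 10.07 and 10.20 in K320E and 10.07, 9.86, 9.79 and 9.81 in controls, a fold change of 0.11 (SE 0.10). Cenpf, a kinetochore protein of G2 and mitosis, read 9.14, 8.89, 9.07 and 9.19 in K320E and 9.10, 8.92, 8.91 and 8.75 in controls, a fold change of 0.15 (SE 0.09). In both genes the highest array was K320E array 4, and at least 3 of the 4 controls lay inside the K320E range. The kinetochore motor Cenpe and the motor of cytokinesis Kif20a had fold changes of 0.13 and 0.19.

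Members that license and copy DNA mostly had the opposite sign. Mcm2 to Mcm7 form the replicative helicase, and 5 of the 6 had a negative log2 fold change, with a median of -0.08. Mcm6 read 9.11, 8.93, 9.13 and 9.05 in K320E and 9.50, 9.36, 8.99 and 9.38 in controls. Of the controls 3 lay above every K320E array, and control array 3 lay within their range. The difference was -0.26 (SE 0.11, 95% interval -0.49 to -0.02; limma adjusted p = 0.304). Mcm7 read 8.42, 8.05, 7.90 and 8.04 in K320E and 8.41, 8.26, 8.14 and 8.49 in controls. Its fold change was -0.22 (SE 0.12, adjusted p = 0.435), and K320E array 1 lay among the controls. With the level of hair structure genes as a covariate it was 0.012, but that level nearly followed genotype, so this fit cannot separate them. Mcm2 went the other way, at 7.82, 7.34, 7.51 and 7.63 in K320E and 7.698, 7.57, 7.13 and 7.36 in controls, a fold change of 0.14 (SE 0.14). Mcm3, Mcm4 and Mcm5 lay between -0.08 and -0.04.

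Loading and sliding factors gave similar small values. Cdc6, which loads the helicase on origins, read 7.25, 6.92, 7.10 and 7.16 in K320E and 7.52, 7.64, 7.01 and 7.23 in controls. Its fold change was -0.24 (SE 0.14, adjusted p = 0.466), with control arrays 3 and 4 inside the K320E range. Cdt1, its partner in loading, had a fold change of 0.02. Pcna, the clamp that holds polymerases on DNA, read 10.35, 10.47, 10.51 and 10.49 in K320E and 10.67, 10.63, 10.43 and 10.48 in controls, a fold change of -0.10 (SE 0.07). E2f1, the E2F factor that drives S phase entry, read 6.25, 6.66, 6.21 and 6.41 in K320E and 6.66, 6.38, 6.32 and 6.66 in controls. Its fold change of -0.12 had an interval of -0.39 to 0.15. Ccne1, the cyclin that activates Cdk2 at the start of S phase, read 6.69, 6.81, 6.49 and 6.56 in K320E and 6.71, 6.83, 6.42 and 6.48 in controls. The groups covered the same range, with a fold change of 0.03, and Cdk2 had one of -0.04.

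Genes of nucleotide supply included the lowest value of the set. Rrm2, the small subunit of ribonucleotide reductase, read 7.25, 8.03, 8.01 and 8.02 in K320E and 8.48, 8.44, 8.004 and 8.44 in controls. A single array stood apart on each side: K320E array 1 was far below the other 3, and control array 3 lay with the K320E arrays. The log2 fold change was -0.51 (SE 0.19, 95% interval -0.94 to -0.09; limma adjusted p = 0.241), and -0.32 without K320E array 1. The other probe set of the gene gave -0.21 (SE 0.16). The large subunit Rrm1 had a fold change of -0.07 and the thymidylate synthase gene Tyms one of -0.14, so all 3 were negative and none passed.

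The G1 cyclins and kinases, which respond to growth signals, had positive values that for 3 of the 4 came mostly from K320E array 1. Ccnd1, cyclin D1, read 9.28, 8.71, 8.67 and 8.80 in K320E and 8.91, 8.64, 8.68 and 8.52 in controls. The fold change was 0.18 (SE 0.14), with K320E array 1 the highest. Cdk6, one of its kinases, had a fold change of 0.23 (SE 0.10, adjusted p = 0.311), while Cdk4 and Ccnd2 had 0.12 and 0.14. Without K320E array 1 the values were 0.040 for Ccnd1, 0.039 for Ccnd2, 0.038 for Cdk4 and 0.31 for Cdk6. Without control arrays 2 and 3 Ccnd2 was at -0.0076.

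The sets were then compared within each array, as the mean of the 19 G2/M members minus the mean of the 9 G1/S members. This difference of log2 means was 0.96, 0.89, 0.94 and 0.98 on K320E arrays 1 to 4 and 0.69, 0.57, 0.81 and 0.56 on control arrays 1 to 4. Every K320E array lay above every control. The group means were 0.94 ± 0.04 and 0.66 ± 0.12 (SD, n = 4 each), 0.28 apart (SE 0.06). The G2/M mean was 9.01 ± 0.10 in K320E and 8.81 ± 0.12 in controls, 0.20 apart (SE 0.08). The G1/S mean was 8.07 ± 0.07 and 8.15 ± 0.15, a difference of -0.08 (SE 0.08) that was within the spread of the arrays. Neither set mean alone separated the groups. With a wider G1/S set of 15 genes, which adds Cdk2, Cdc6, Cdt1, Rrm1, Rrm2 and Tyms, the difference was 0.32 (SE 0.07). Without control arrays 2 and 3 it was 0.32, with 16 of 19 G2/M members above 0 and 7 of 9 G1/S members below. No p is given for these means, because the members were chosen with earlier results of these arrays known.

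**Figure D3:**
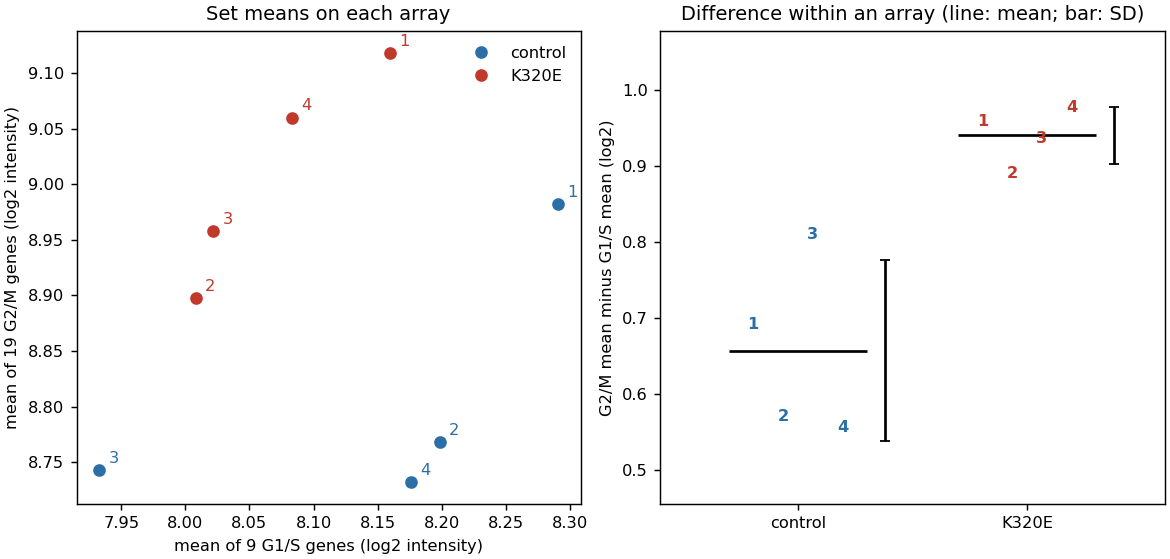
Left, the mean of the 19 G2/M members against the mean of the 9 G1/S members on each array (log2 intensity, control blue, K320E red, digits give the replicate); right, their difference within each array, with group mean (line) and SD (bar, n = 4). The K320E arrays lie between 0.89 and 0.98 and the controls between 0.56 and 0.81.

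Members varied together between arrays of the same genotype. Among controls, array 1 was the highest of the 4 for 26 of the 38 members and array 3 the lowest for 24. Array 3 was the lowest control for all 15 genes of the wider G1/S set, and array 1 the highest for 16 of the 19 G2/M members. In K320E the pattern was looser, with array 1 the highest for 19 of 38 members and array 2 the lowest for 17. Control array 3 is one of the pair with unusual sex-linked transcripts.

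**Figure D4:**
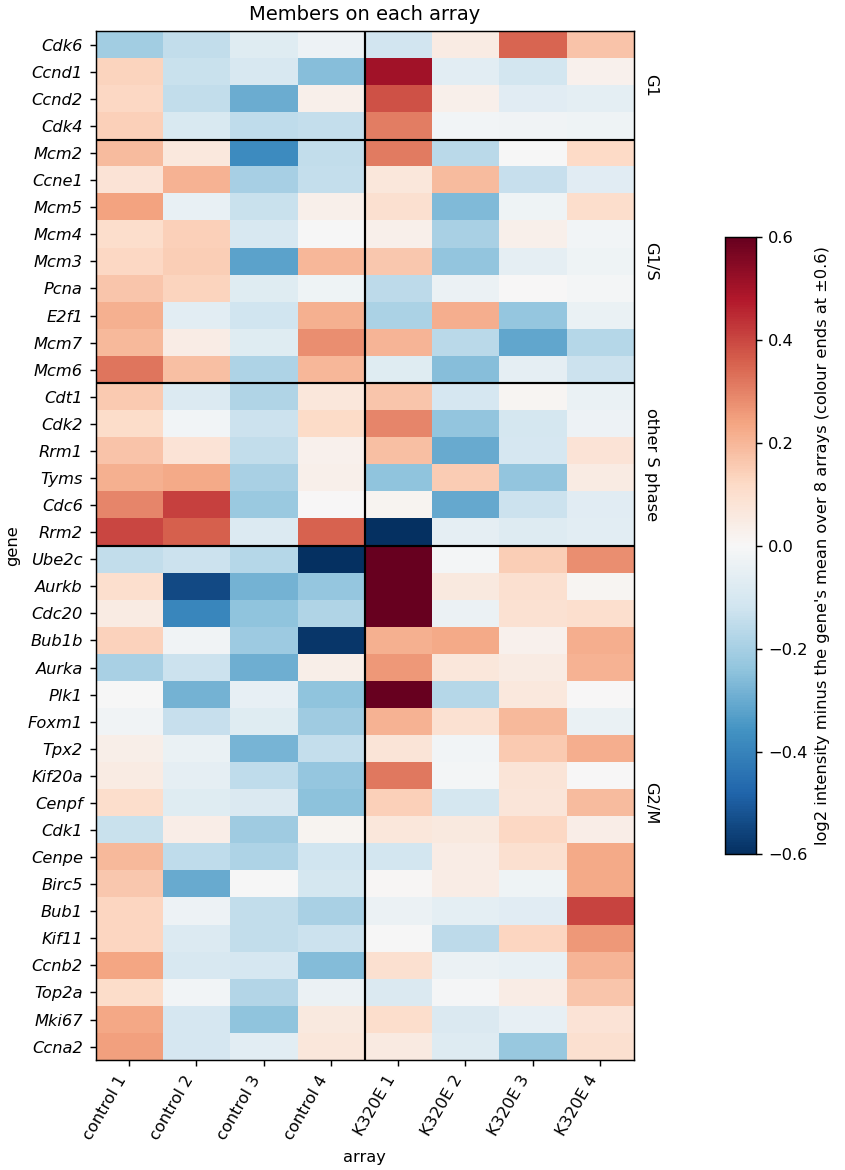
Each measured member on each array as its log2 intensity minus that gene's mean over the 8 arrays (red above, blue below, colour ending at ±0.6), with black lines between the groups of genes and of arrays. Control array 3 is blue in every row of the G1/S and other S phase blocks, and Ube2c, Aurkb, Cdc20 and Plk1 are deep red on K320E array 1.

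Markers of the tissue compartments that hold dividing cells were set beside these values. Of 8 basal keratinocyte markers 7 were measured, 4 with positive and 3 with negative fold changes and a median of 0.21. Their mean level lay between 10.3 and 10.5 in K320E and between 10.1 and 10.3 in controls. The groups did not overlap for 4 of the 7 (57.1%, against 9.25% of all genes), and none passed the threshold. The integrin genes Itgb4 and Itga6, which anchor basal cells, and the keratin gene Krt14 were higher in every K320E array, with fold changes of 0.77, 0.32 and 0.27 (limma adjusted p = 0.064, 0.135 and 0.141). The keratin gene Krt15 was lower in every one, at -0.31 (adjusted p = 0.117). Hair matrix markers, 7 of 8 measured, had a mean level between 7.05 and 7.45 over all arrays, with 2 positive and 5 negative fold changes. Hair structure genes, 9 of 10 measured, had a median fold change of -1.09. Their mean level lay between 7.57 and 8.12 in K320E and between 8.12 and 9.65 in controls, with control arrays 1 and 4 the highest. This level nearly followed genotype, so with 8 arrays a fit that takes it as a covariate cannot separate hair content from genotype. With the hair structure level as a covariate, the difference of G2/M and G1/S means was 0.26, and all 19 G2/M members were above 0. The G1/S median was then 0.012, and 4 of 9 G1/S members were below 0 in place of 7: Mcm4, Mcm6 and Pcna, which were below 0 without the covariate too, and Ccne1, which was not. Leukocyte markers, all 8 measured, had a mean level between 6.82 and 7.12 in K320E and between 7.03 and 7.41 in controls. The mean of the Langerhans cell markers, 5 of 6 measured, was lower in every K320E array (6.65 to 6.81) than in every control (7.15 to 7.29). The groups did not overlap for 3 of the 5 (60%, against 9.25% of all genes). H2-Aa and H2-Ab1 passed the threshold, at -1.05 and -0.98 (limma adjusted p = 0.0021 and 0.013). Cd207, H2-Eb1 and Epcam, at -0.07, -0.19 and -0.18, did not. Skeletal muscle markers, 6 of 6 measured, all had positive fold changes. Their mean level lay between 6.83 and 8.19 in K320E and between 6.29 and 7.34 in controls. The part of these compartments and other cells in the cell cycle values was not tested.

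Of 125 other cell cycle genes, 119 were measured, and 1 passed the threshold. Anln, which encodes anillin, the scaffold of the contractile ring in cytokinesis, rose in K320E. It read 9.79, 9.54, 9.81 and 9.69 in K320E and 9.18, 9.04, 9.06 and 9.07 in controls. The groups were well apart and tight, at 9.71 ± 0.12 and 9.09 ± 0.07 (SD, n = 4 each). The log2 fold change was 0.62 (SE 0.07; limma adjusted p = 0.0079), or 1.54-fold. The call was lost without control arrays 2 and 3 together (0.58, adjusted p = 0.053) and with the hair structure level as a covariate (0.67, adjusted p = 0.156), while the size stayed. The hair structure level nearly followed genotype, so that fit cannot separate them. The share called, 1 of 119, is near the 0.879% of all genes.

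Further genes of the spindle and kinetochore had the sign of the G2/M members. Of 27 measured, 23 had positive fold changes, with a median of 0.15. The groups did not overlap for 7 of them (25.9%), Anln, Incenp and Cdca8 included, all higher in K320E. Over all genes 5.5% had K320E wholly above control, and 9.25% were apart in either direction. Kif2c, a motor that takes microtubules apart at kinetochores, lay between 7.99 and 8.42 in K320E and between 7.63 and 7.87 in controls, a fold change of 0.37 (SE 0.10, adjusted p = 0.143). Bub3, which carries BubR1 to kinetochores, lay between 9.27 and 9.34 against 8.90 and 9.15, a fold change of 0.27 (SE 0.06, adjusted p = 0.097). Kif4 and Sgo1, which guard chromosome structure and cohesion, had 0.13 each. In the list of mitotic entry genes, 6 of 7 measured were above 0, with a median of 0.04. Cdc25c there, the phosphatase that switches Cdk1 on, lay between 8.49 and 8.65 in K320E and between 8.02 and 8.35 in controls, a fold change of 0.37 (SE 0.08, adjusted p = 0.076). Anln apart, none of these passed.

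Other replication genes were centred near 0. Of 34 measured, 14 were above 0 and 20 below, with a median of -0.03, a range of -0.30 to 0.22 and none past the threshold; at an unadjusted p under 0.05, 1 was higher and 3 were lower. Condensin and cohesin genes, 7 measured, had a median of -0.02.

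**Figure D5:**
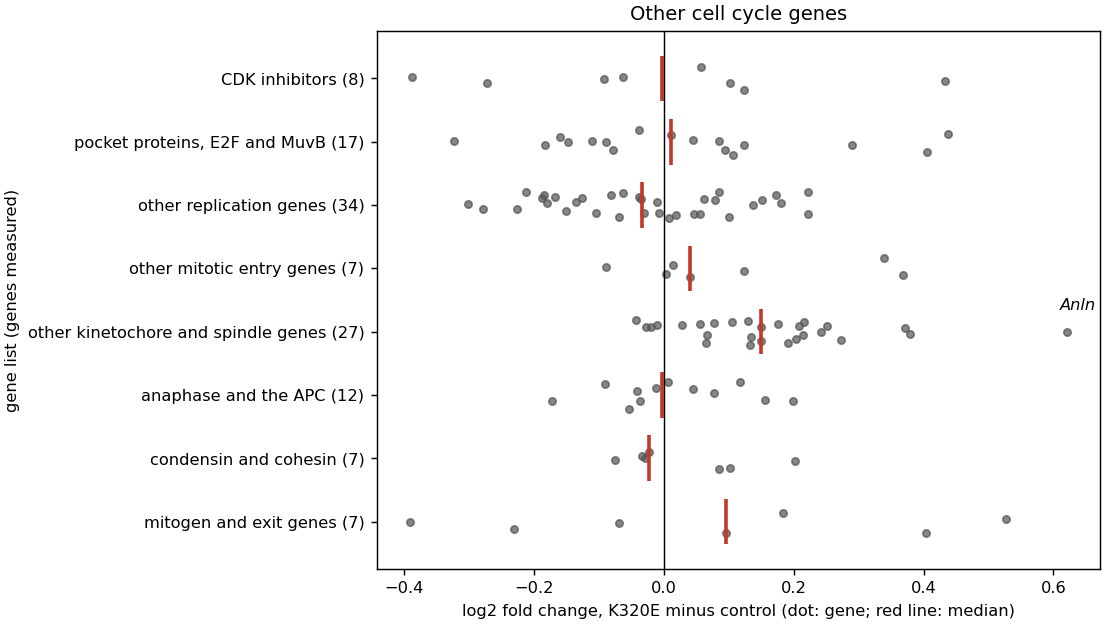
Log2 fold change (K320E minus control) of 119 other cell cycle genes, one dot each, in 8 lists, with the median of each list as a red line; the vertical spread of dots carries no value. Spindle and kinetochore genes have a median of 0.15 and replication genes one of -0.03, and Anln is the gene past the threshold.

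Inhibitors of the cyclin-dependent kinases, 8 measured, had 4 positive and 4 negative fold changes, and none passed the threshold. Cdkn2c, an inhibitor of Cdk4 and Cdk6, read 7.02, 7.23, 7.14 and 7.09 in K320E and 7.51, 7.69, 7.37 and 7.48 in controls. Every K320E array was below every control, and the log2 fold change was -0.39 (SE 0.08, limma adjusted p = 0.065). Cdkn1b, which holds cells in quiescence, read 7.72, 7.61, 7.42 and 7.67 in K320E and 7.89, 7.76, 7.92 and 7.92 in controls, a fold change of -0.27 (SE 0.08, adjusted p = 0.15). Cdkn1a, the inhibitor that p53 induces, read 11.54, 11.02, 10.99 and 10.91 in K320E and 10.63, 10.80, 10.84 and 10.45 in controls, a fold change of 0.43 (SE 0.14, adjusted p = 0.211). For these 3 of the 8 inhibitors (37.5%) the groups did not overlap, with Cdkn1a higher and the other 2 lower in K320E, where the share over all genes was 9.25%. Cdkn1c, Cdkn2a, Cdkn2b, Cdkn2d and Cdkn3 had fold changes between -0.09 and 0.12.

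The highest values among the E2F, pocket protein and MuvB genes were those of 3 repressive E2F factors, E2f7, E2f4 and E2f8. E2f4, which represses cell cycle genes in resting cells, lay between 7.88 and 8.14 in K320E and between 7.47 and 7.75 in controls, a fold change of 0.41 (SE 0.08, adjusted p = 0.067). E2f7 and E2f8, atypical repressors made in S phase, had fold changes of 0.44 (SE 0.11, adjusted p = 0.106) and 0.29 (SE 0.10, adjusted p = 0.229). In each of these 3, which are 17.6% of the list, every K320E array was above every control, and none passed the threshold. Over all genes 5.5% had K320E wholly above control, and 9.25% were apart in either direction. The other E2F factors of the list, E2f2, E2f3, E2f5 and E2f6, lay between -0.15 and 0.09, with overlapping groups. The pocket protein genes Rb1, Rbl1 and Rbl2 had -0.16, -0.11 and 0.04, and Tfdp2 had the lowest value of the list, -0.32. The whole list of 17 had a median of 0.01, with 9 above 0 and 8 below. Ccng1, cyclin G1, a p53 target, lay between 10.66 and 11.07 in K320E and between 10.15 and 10.52 in controls, a fold change of 0.53 (SE 0.11, adjusted p = 0.068).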

How the data were processed

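The authors deposited 1 table of log2 intensities, with 33793 probe sets for each of the 8 arrays. How background was corrected and arrays normalised is not given in the sources used here. No further normalisation was applied. Per the labels, RNA was labelled with biotin after amplification. Probe sets were named through GEO's platform annotation: 23521 had 1 gene symbol, 1814 several and 8458 none here. Each of 22180 genes was represented by its probe set of highest mean. No 2 arrays were identical, and the number of arrays limits the precision.

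The test was limma's moderated contrast (version 3.58.1, R 4.3.3) with genotype as the only term, with Benjamini-Hochberg adjustment over all genes and a threshold of 0.05. The members and lists were chosen with earlier results of these data known, so list medians and set means have no p. All 38 measured members lay above the median level of all genes. Values of every array are given for 18 members picked by role (Ccnb1 among them, which was not measured), for the 4 highest and 4 lowest fold changes, and for members whose groups do not overlap; Foxm1, Tpx2 and others appear with their fold change. From the other lists the naming rule takes genes past the threshold, genes whose groups do not overlap, and the kinase inhibitors. The contrast was tested on simulated data in which 200 of 22180 genes differed. Of the 1.5-fold differences 74.6% were called, of the 2-fold 94% and of the 4-fold 100%, with 10 false calls. The members ran from 0.70-fold (Rrm2) to 1.44-fold (Ube2c), all smaller than the smallest simulated difference. These shares therefore do not tell how often differences of that size would be called. Promoters came from RefSeq, with the first entry of each gene.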

Additional observations from a re-analysis of the deposited data

Results flagged for a closer look

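An array far from the other 3 of its group arises by chance in about 1 in 20 groups. The groups here come from the same 8 arrays and vary together, so their count cannot be set against that rate. In 13 of 124 groups of 4 arrays examined, 1 array lay far from the other 3. K320E replicate 1 did so for 5 genes: Cdk4 at 9.99 (others up to 9.67), Rrm2 at 7.25 (others from 8.01), Aurkb at 9.59 (others up to 8.90), Cdc25c at 8.65 and Kif2c at 8.42. K320E replicate 4 stood apart for Bub1 at 8.86 and Bub3 at 9.27, and K320E replicate 3 for Bub1b at 8.12. Among controls, replicate 3 was low for Mcm3 at 7.54 and Rrm2 at 8.0, replicate 4 for Ube2c at 8.43, and replicate 2 for Cdkn2a at 6.60. The mean of the G2/M members was 8.98 in control replicate 1, against 8.73 to 8.77 in the other controls. The causes were not tested.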

How the results depend on the processing

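The count of 0 members called held under all 10 alternatives and with each array left out, while 195 genes were called in all. The G2/M minus G1/S difference ran from 0.25 to 0.33 with 1 array left out and from 0.26 to 0.32 under the other alternatives. The same replicate numbers in both groups were fitted as a block: all genes called then numbered 114, and no member gained a call. Whether the numbers stand for pairs was not settled. The correlations of deviations ran from -0.06 to 0.14, and 4 of 8 arrays correlated best with their own number, which is too few arrays to decide. With the hair structure level as a covariate 1 gene was called in all, 0 of the other cell cycle genes, 4 G1/S members were below 0, and the G1/S median turned to 0.012. That level nearly followed genotype, so this fit cannot separate hair content from genotype. The other cell cycle genes called numbered 2 with the genes of lowest level left out, 2 with a trend and robust prior, 0 without control replicates 2 and 3 together, and between 1 and 2 with 1 array left out. Leaving out 1 array gave between 53 and 173 calls over all genes: 53 without K320E replicate 3, 77 without K320E replicate 4, 105 without K320E replicate 1, 87 without control replicate 1 or 2 and 118 without control replicate 4. Ccng1 passed the threshold with the genes of lowest level left out (adjusted p = 0.041) and with the trend and robust prior (0.038), and E2f4 did without control replicate 3 (0.044).

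Some fold changes changed sign, most of them near 0 but also Mcm7 from -0.22, and the cause was not tested. With the hair structure covariate Ccne1 was -0.058, Cdk2 0.14, E2f1 0.079, Mcm3 0.10, Mcm5 0.13, Mcm7 0.012, Rrm1 0.058, Ccna2 0.14 and Cdkn1c -0.056. Without control replicates 2 and 3 together Ccnd2 was -0.0076, Cdt1 -0.10, Mki67 -0.13 and Top2a -0.0077. With 1 array left out Ccne1 ran from -0.035 to 0.10, Cdk2 ran from -0.14 to 0.033, Cdt1 ran from -0.038 to 0.074, Mcm5 ran from -0.097 to 0.036, Rrm1 ran from -0.14 to 0.021, Mki67 ran from -0.051 to 0.11, Cdkn2d ran from -0.015 to 0.10 and Cdkn3 ran from -0.11 to 0.0079.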

Other observations

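The promoter letters described for the members were also counted in lists that share no gene with them. Among the other kinetochore and spindle genes with a RefSeq promoter, 18 of 24 held TTTGAA and 0 of 24 held GCGGGAA. Among the other replication genes, 6 of 28 held TTTGAA (21.4%) and 10 of 28 held GCGGGAA (35.7%). Over all 27025 promoters the shares were 18.1% and 4.66%. CCAAT was in 15 of 24 and 15 of 28. These are counts of letters in a window of 300 bases, with no test.

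Genes of mitogen response and cell cycle exit differed in direction among themselves. For Myc, which drives growth and division, the log2 fold change was 0.40 with an SE of 0.13 (limma adjusted p = 0.198), and for Btg2, an antiproliferative gene, it was -0.39 (SE 0.14, adjusted p = 0.247). Both were chosen after their values were seen, their groups overlapped, and neither passed the threshold. The third D-type cyclin gene, Ccnd3, had a fold change of 0.18.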
